A study of Caenorhabditis elegans with 36 samples.

Results

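The expression of 9 genes that act in the nucleus on the mitochondrial stress response of *C. elegans* was followed through adulthood in whole worms. The genes were *atfs-1*, *dve-1*, *ubl-5*, *hda-1*, *cbp-1*, *lin-65*, *met-2*, *jmjd-1.2* and *jmjd-3.1*, taken by symbol from a deposited table of 18949 genes, and all 9 were found. Wild-type N2 worms, with no mutant allele or transgene, were grown from the L1 larval stage on bacteria that carried either the *cco-1* RNAi clone mixed with control bacteria (*cco-1* RNAi) or control RNAi bacteria with the empty vector alone (ev). The *cco-1* RNAi clone made up 50% of the food in all *cco-1* RNAi samples. *cco-1* encodes a subunit of cytochrome c oxidase, the last complex of the electron transport chain. Harvests were made every other day between day 1 and day 11 of adult life, with 3 biological replicates for each of the 12 groups, and each of the 36 libraries was made from RNA of a pool of whole worms. The question asked of these genes was how their transcript levels differed between *cco-1* RNAi and ev worms at each age, and whether the change with age differed between the diets.

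When mitochondria fail to import or fold their proteins, worms turn on nuclear genes for mitochondrial chaperones and proteases, the mitochondrial unfolded protein response. ATFS-1 is the transcription factor that leaves the mitochondrial import route for the nucleus, DVE-1 and UBL-5 act with it at chaperone genes, and a further set of proteins changes the chromatin on which they work. Because ATFS-1, DVE-1 and LIN-65 are controlled mainly by where the protein goes in the cell, transcript levels report on only one layer of these regulators.

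Values are CPM as deposited and on a linear scale, and every value below is a CPM value of one library or the mean ± SD of 3. CPM are read counts scaled to library size, but these values also had nearly the same distribution in every library, as after a quantile normalization. Differences are log2 fold changes on the log2(CPM + 1) scale from one limma fit over all 36 libraries, given ± SE, with P values adjusted over the 15713 genes tested. Each SE rests on 1 spread per gene shared by all 12 groups, so neither it nor the P value measures the spread of the groups compared alone. Some *cco-1* RNAi groups varied more on the log2 scale. The SD was 0.29 for *lin-65* at day 9, and 0.27 for *ubl-5* and 0.24 for *cbp-1* at day 5. All 9 genes passed the filter on low values. A gene was called higher or lower where the log2 fold change was beyond 0.5 in size and the adjusted P was below 0.05. Counts at an unadjusted P below 0.05 in limma are given without the share of all genes, so they cannot be set against it.

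Read depth is unknown because the deposited values were scaled to library size and had nearly the same distribution in every library, so counting error cannot be given. The RNAi target was lower in *cco-1* RNAi than in ev libraries with no overlap at any of the 6 days, with log2 fold changes between −1.57 at day 3 and −0.57 at day 1. Replicates of a group correlated at r of at least 0.991, and the median SD of a gene between replicates was 0.105 (day 5), 0.119 (day 9) and 0.115 (day 11) on the log2 scale in *cco-1* RNAi worms, against 0.073 to 0.083 in the 6 ev groups. Whole worms hold several tissues, so a smaller number of cells of one type and less RNA per cell cannot be told apart. At day 1, markers of all 8 adult tissues looked at were detected in ev worms, whereas 7 of 8 early-embryo markers were below 1 CPM.

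The tissue markers moved with RNAi and with age in the same libraries as the 9 genes. At day 5 the 6 body wall muscle markers summed to 1874 to 2367 CPM in *cco-1* RNAi libraries, against 866 to 909 CPM in ev libraries. The 8 embryo markers, of which *sdz-28* made up most, summed to 13.3 to 16.1 CPM in *cco-1* RNAi libraries at that day, against 41.6 to 44.4 CPM in ev libraries. At day 11 the muscle sum was 522 to 990.5 CPM in *cco-1* RNAi libraries and 143 to 172 CPM in ev libraries, and the intestine sum was 212 to 273 CPM in *cco-1* RNAi libraries and 101 to 115 CPM in ev libraries. The oocyte sum at that day was 7317 to 7549 CPM in *cco-1* RNAi libraries and 4819 to 4966 CPM in ev libraries, and the embryo sum was 6.12 to 6.69 CPM in *cco-1* RNAi libraries and 8.90 to 10.3 CPM in ev libraries. At that day 6 of 6 muscle, 6 of 7 intestine and 5 of 8 oocyte markers were called higher in *cco-1* RNAi than in ev worms, whereas 0 of 6 embryo markers tested were called in either direction. Of all genes tested, 15.1% were called higher and 13.3% lower at that day. The part of these shifts in the differences given below was not tested.

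**Figure D1:**
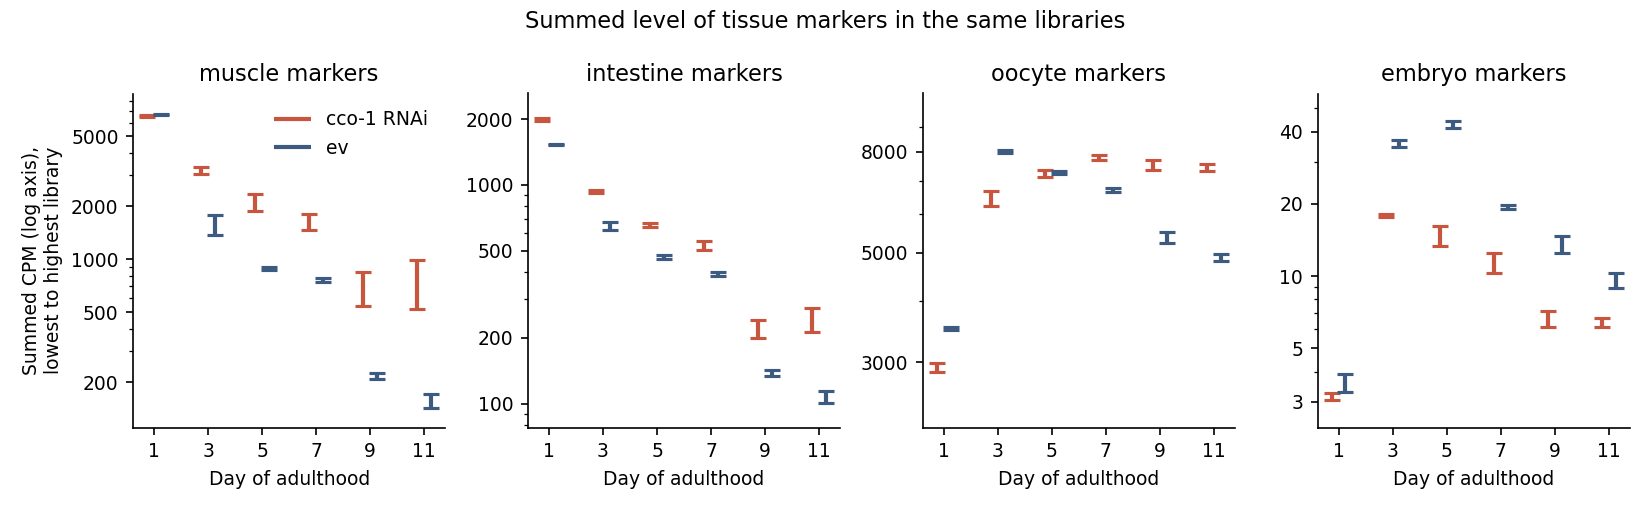
Summed CPM of the marker genes of muscle, intestine, oocytes and embryos (log axis) against day of adulthood, drawn from the lowest to the highest of the 3 libraries, for *cco-1* RNAi (red) and ev (blue). The embryo sum was highest at day 5 in ev worms (41.6 to 44.4 CPM), and the muscle sum at day 11 was 522 to 990.5 CPM in *cco-1* RNAi and 143 to 172 CPM in ev libraries.

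Compared per kilobase of exon, which is needed to set one gene's level against another's, *hda-1* was the most abundant of the 9 transcripts with 158 CPM per kb over all libraries. It was followed by *jmjd-1.2* (65.7 CPM per kb), *ubl-5* (42.8), *atfs-1* (36.9), *cbp-1* (35.9), *met-2* (31.1) and *lin-65* (15.6). *dve-1* (5.06 CPM per kb) and *jmjd-3.1* (4.36) were the least abundant.

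Of the 9 transcripts, 0 were called higher in *cco-1* RNAi than in ev worms at any age, where 30.9% of all genes were on at least 1 of the 6 days, and 6 were called lower on at least 1 day, where 29.4% of all genes were. Among the chromatin genes, *met-2* and *jmjd-3.1* were lower on 3 days each and *jmjd-1.2* and *lin-65* on 1 day each. Of the partners of ATFS-1, *ubl-5* was lower on 3 days and *dve-1* at day 1 alone. *jmjd-3.1*, a histone demethylase gene, differed most, and at day 5 it averaged 13.9 ± 1.05 CPM on *cco-1* RNAi and 37.1 ± 1.05 CPM on ev (SD, n = 3 each). *atfs-1*, *hda-1* and *cbp-1* were called on no day.

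In numbers, 1 of 9 genes was called lower at day 1, where 4.46% of all genes tested were, and 0 of 9 were called lower at day 3, where 7.92% of all genes were. At day 5, 4 of 9 were called lower, against 16.6% of all genes, at day 7, 3 of 9, against 13%, at day 9, 2 of 9, against 8.69%, and at day 11, 2 of 9, against 13.3%. Called higher were 0 of 9 at each day, where 4.63% (day 1), 9.36% (day 3), 16.7% (day 5), 11.6% (day 7), 9.44% (day 9) and 15.1% (day 11) of all genes were. The 1 gene called lower at day 1 was *dve-1*, whose call was lost without ev replicate 1 (−0.46) and with a pseudocount of 5 (−0.45), which left 0 of 9, and the count at day 11 is near the share of all genes. At an unadjusted P below 0.05 in limma, and with no limit on the fold change, 7 of 9 genes were lower at day 3, and 2, 0, 1, 1, 2 and 2 of 9 were higher in order of day. The median log2 fold change of the 9 genes was −0.14, −0.24, −0.41, −0.39, −0.27 and −0.42 at days 1 to 11, beside −0.01, −0.01, 0.06, 0.04, −0.01 and −0.08 for all genes tested.

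**Figure D2:**
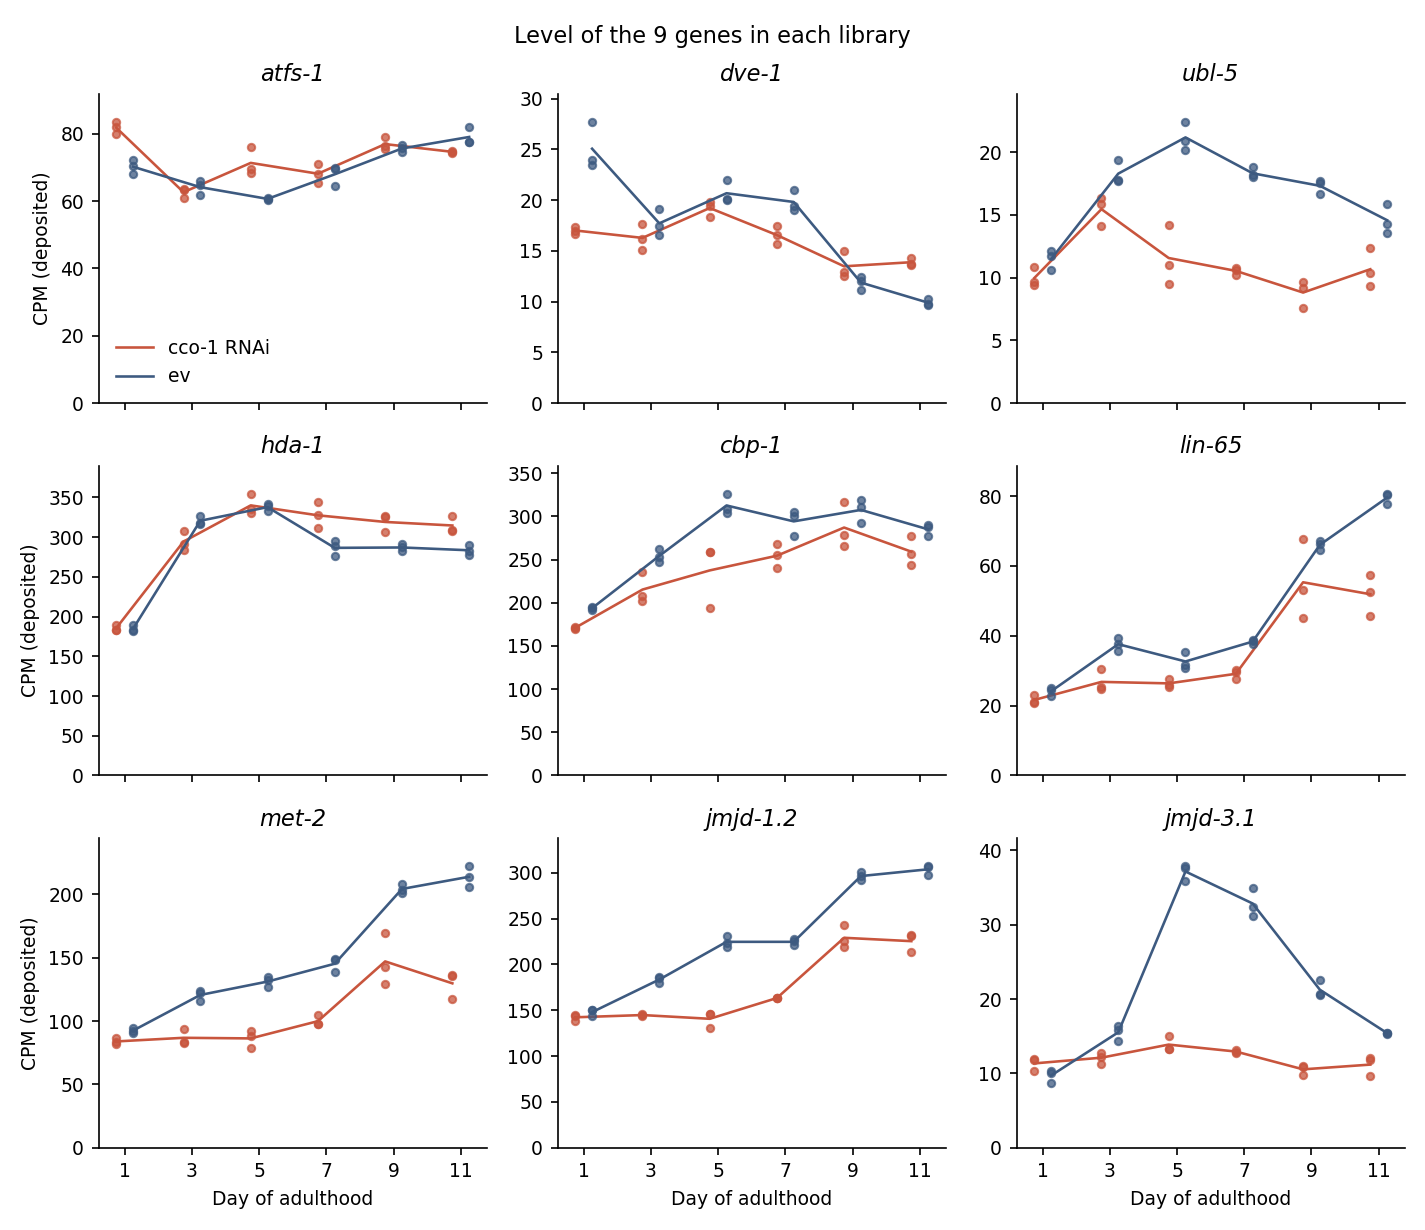
CPM of each of the 9 genes against day of adulthood, 1 point per library and a line through the group means, for *cco-1* RNAi (red, drawn to the left) and ev (blue). *jmjd-3.1* reached 35.9, 37.8 and 37.7 CPM in ev libraries at day 5, against 13.3, 13.2 and 15.1 CPM in *cco-1* RNAi libraries, whereas *atfs-1* stayed between 60.5 and 83.6 CPM in all 36 libraries.

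*atfs-1* (WBGene00013878, chromosome V, 14193663 to 14197700 on the plus strand, WBcel235) encodes the bZIP transcription factor at the head of the response. Its group means were 81.8, 62.7, 71.4, 68.2, 76.95 and 74.7 CPM in *cco-1* RNAi worms in order of day, against 70.2, 64.2, 60.7, 67.98, 75.7 and 79.1 CPM in ev worms (SDs of 0.21 to 4.22 CPM, n = 3 each). At day 1 the libraries held 81.97, 79.8 and 83.6 CPM in *cco-1* RNAi worms, against 72.2, 70.4 and 68.02 CPM in ev worms. The groups did not overlap at that day, and the difference (0.22 ± 0.04, adjusted P = 1.9e-04) passed the test but not the fold threshold. The same held at day 5 (0.23 ± 0.04, adjusted P = 2.8e-05), where 60.5, 60.6 and 60.9 CPM in ev worms were the lowest values of the gene. At days 3, 7, 9 and 11 the differences were between −0.08 and 0.02 and did not pass the test, with an interval of −0.17 to 0.01 at day 11. The highest of the 12 group means was 1.35-fold above the lowest, the smallest range among the 9 genes, and of the 11 neighbouring pairs in the order of group means 1 had no overlap between libraries.

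*dve-1* (WBGene00022861, X, 427035 to 433812, minus strand) encodes a homeodomain protein that binds mitochondrial chaperone gene promoters under stress. Its difference between the diets turned round with age. Its group means were 17, 16.3, 19.2, 16.6, 13.5 and 13.9 CPM in *cco-1* RNAi worms at days 1 to 11, against 25.1, 17.7, 20.7, 19.8, 11.9 and 9.89 CPM in ev worms (SDs of 0.31 to 2.32 CPM, n = 3 each). At day 1 it had 16.6, 17 and 17.4 CPM in *cco-1* RNAi libraries, against 27.7, 23.5 and 23.98 CPM in ev libraries. All *cco-1* RNAi libraries were below all ev libraries, and *dve-1* was called lower (−0.53 ± 0.07, adjusted P = 3.6e-07). Without ev replicate 1, which held the highest value, the difference was −0.46 and no longer past the fold threshold, as with a pseudocount of 5. At day 11 it had 14.3, 13.7 and 13.6 CPM in *cco-1* RNAi libraries, against 9.72, 10.3 and 9.70 CPM in ev libraries, again with no overlap but now higher in *cco-1* RNAi worms (0.45 ± 0.07, adjusted P = 2.4e-06), short of the fold threshold. At days 3, 5, 7 and 9 the differences were −0.12 ± 0.07, −0.10 ± 0.07, −0.25 ± 0.07 and 0.17 ± 0.07, of which that at day 7 passed the test alone (adjusted P = 0.0048). Of the 11 neighbouring pairs in the order of its 12 group means, 4 were free of overlap, among them the highest group (ev day 1) and the next (ev day 5).

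*ubl-5* (WBGene00006726, I, 5607826 to 5608841, minus strand) encodes a small ubiquitin-like protein that pairs with DVE-1. Its libraries overlapped at day 1 and did not from day 3 to day 11. Group means were 9.96, 15.5, 11.6, 10.5, 8.81 and 10.7 CPM in *cco-1* RNAi worms, against 11.5, 18.3, 21.2, 18.3, 17.3 and 14.6 CPM in ev worms (SDs of 0.27 to 2.41 CPM, n = 3 each). At day 5 the libraries held 9.47, 14.2 and 11.03 CPM in *cco-1* RNAi worms, against 20.9, 22.4 and 20.2 CPM in ev worms. Replicate 2 of *cco-1* RNAi stood above its group and still below every ev library, and the gene was called lower (−0.84 ± 0.10, adjusted P = 2.1e-09). It was also called lower at day 7 (−0.74 ± 0.10, adjusted P = 3.8e-08) and at day 9 (−0.91 ± 0.10, adjusted P = 9.9e-10), where the libraries held 7.60, 9.15 and 9.68 CPM in *cco-1* RNAi worms, against 16.7, 17.6 and 17.7 CPM in ev worms. At day 11 the difference was −0.42 ± 0.10, adjusted P = 3.3e-04, below the fold threshold, and −0.52 without *cco-1* RNAi replicate 2. At day 3 it was −0.23 ± 0.10, adjusted P = 0.049, and at day 1 −0.19 ± 0.10 with an interval of −0.39 to 0.01. Only 2 of 11 neighbouring pairs in the order of group means had no overlap.

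*hda-1* (WBGene00001834, V, 14525389 to 14527411, plus strand) encodes a class I histone deacetylase, and *cbp-1* (WBGene00000366, III, 9766509 to 9774825, plus strand) encodes the worm p300/CBP acetyltransferase. Neither was called between the diets on any day. *hda-1* averaged 186, 294, 340.0, 328, 319 and 315 CPM in *cco-1* RNAi worms at days 1 to 11, against 185, 321, 338, 287, 287 and 283 CPM in ev worms (SDs of 3.7 to 16.4 CPM, n = 3 each). At day 7 *hda-1* had 344, 311 and 328 CPM in *cco-1* RNAi libraries, against 276, 295 and 289 CPM in ev libraries, without overlap (0.19 ± 0.04, adjusted P = 8.4e-05). At day 3 the difference was in the other direction (−0.12 ± 0.04, adjusted P = 0.0093), also without overlap. The *hda-1* differences at days 9 and 11 were 0.15 ± 0.04 and 0.15 ± 0.04, and that at day 5 was 0.01 ± 0.04 with an interval of −0.07 to 0.09. *cbp-1* averaged 171, 215, 237, 254, 287 and 259 CPM in *cco-1* RNAi worms, against 194, 254, 313, 294, 308 and 285 CPM in ev worms (SDs of 0.92 to 37.6 CPM, n = 3 each), and its mean was lower in *cco-1* RNAi worms on all 6 days. At day 5 *cbp-1* had 259, 194 and 259 CPM in *cco-1* RNAi libraries, against 308, 304 and 326 CPM in ev libraries (−0.41 ± 0.08, adjusted P = 3.0e-05). One *cco-1* RNAi library, replicate 2, lay well under the other two, and the groups did not overlap. A stretch of 81 exon bases of *cbp-1* also lies in the non-coding gene *R10E11.13* on the same strand, where reads cannot be assigned to one gene. Of 11 neighbouring pairs in the order of group means, 2 for *hda-1* and 3 for *cbp-1* had no overlap.

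*lin-65* (WBGene00022149, I, 1755329 to 1766400, plus strand) encodes a nuclear protein that works with MET-2, and *met-2* (WBGene00019883, III, 8375300 to 8380848, plus strand) encodes the SETDB1-like methyltransferase that adds methyl groups to lysine on histone H3. Both transcripts were lower in *cco-1* RNAi worms on all 6 days by their means, and both were called lower at day 11. *lin-65* averaged 21.6, 26.8, 26.4, 29.1, 55.3 and 51.9 CPM in *cco-1* RNAi worms at days 1 to 11, against 24.1, 37.6, 32.6, 38.3, 66.04 and 79.5 CPM in ev worms (SDs of 0.61 to 11.6 CPM, n = 3 each). At day 11 *lin-65* had 45.6, 57.4 and 52.6 CPM in *cco-1* RNAi libraries, against 80.2, 80.6 and 77.8 CPM in ev libraries (−0.61 ± 0.09, adjusted P = 4.7e-07). Every *cco-1* RNAi library was under every ev library. At day 9 *lin-65* had 45.01, 67.8 and 53.1 CPM in *cco-1* RNAi libraries, against 64.5, 67.2 and 66.4 CPM in ev libraries, and here replicate 2 of *cco-1* RNAi was above all 3 ev libraries (−0.27 ± 0.09, adjusted P = 0.012). At day 3 the *lin-65* difference was −0.48 ± 0.09, adjusted P = 4.2e-05, short of the fold threshold, and it passed at −0.51 without ev replicate 3 and at −0.57 without *cco-1* RNAi replicate 2.

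*met-2* averaged 83.97, 86.8, 86.4, 99.98, 147 and 129.8 CPM in *cco-1* RNAi worms, against 92.5, 121, 131, 145, 204 and 214 CPM in ev worms (SDs of 1.7 to 20.7 CPM, n = 3 each). At day 11 *met-2* had 117, 136 and 136 CPM in *cco-1* RNAi libraries, against 222, 206 and 214 CPM in ev libraries. The groups were far apart, and *met-2* was called lower (−0.72 ± 0.07, adjusted P = 1.4e-11), as it was at day 5 (−0.60 ± 0.07, adjusted P = 5.0e-10) and day 7 (−0.53 ± 0.07, adjusted P = 9.7e-09). The *met-2* differences at day 3 (−0.47 ± 0.07) and day 9 (−0.48 ± 0.07) fell just inside the fold threshold with no overlap between groups. At day 9 replicate 2 of *cco-1* RNAi, the library that was also highest for *lin-65*, held 169.7 CPM beside 129 and 143 CPM in the other replicates, and without it the *met-2* difference was −0.59. At day 3 it was −0.50 without ev replicate 3 and −0.53 without *cco-1* RNAi replicate 2, both past the threshold. In the order of the 12 group means, 5 of 11 neighbouring pairs for *lin-65* and 4 of 11 for *met-2* had no overlap, and the highest for both was ev at day 11.

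*jmjd-1.2* (WBGene00017920, IV, 4660991 to 4665212, plus strand) encodes a PHF8-family histone lysine demethylase, and *jmjd-3.1* (WBGene00017571, X, 8571047 to 8575451, plus strand) encodes a demethylase of the JMJD3 family that removes a repressive methyl mark. In the worm both have been placed upstream of the mitochondrial stress response and of the longevity that follows it. Both transcripts rose in ev worms after day 1 and less, or not, in *cco-1* RNAi worms. *jmjd-1.2* averaged 142, 145, 141, 163, 229 and 225 CPM in *cco-1* RNAi worms at days 1 to 11, against 148, 183, 225, 225, 296 and 304 CPM in ev worms (SDs of 0.19 to 12.9 CPM, n = 3 each). At day 5 *jmjd-1.2* had 146, 130.4 and 146 CPM in *cco-1* RNAi libraries, against 219, 224 and 231 CPM in ev libraries (−0.67 ± 0.04, adjusted P = 1.1e-16). That was the only day on which *jmjd-1.2* was called, although from day 3 to day 11 its groups did not overlap. The differences at days 3, 7, 9 and 11 were −0.34 ± 0.04, −0.46 ± 0.04, −0.37 ± 0.04 and −0.43 ± 0.04, and the day 1 value was −0.06 ± 0.04 with an interval of −0.14 to 0.03.

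*jmjd-3.1* had the widest range of the 9 genes, with 3.82-fold between the highest and the lowest group mean. It averaged 11.3, 12.1, 13.9, 12.9, 10.6 and 11.2 CPM in *cco-1* RNAi worms, against 9.72, 15.5, 37.1, 32.8, 21.2 and 15.4 CPM in ev worms (SDs of 0.11 to 1.94 CPM, n = 3 each). At day 5 *jmjd-3.1* had 13.3, 13.2 and 15.1 CPM in *cco-1* RNAi libraries, against 35.9, 37.8 and 37.7 CPM in ev libraries (−1.36 ± 0.08, adjusted P = 1.8e-17). The ev libraries were at their peak at this day, while the *cco-1* RNAi libraries were little above their own day 1 values of 10.3, 11.8 and 11.99 CPM. At day 7 it had 13.2, 12.8 and 12.9 CPM in *cco-1* RNAi libraries, against 34.97, 31.2 and 32.4 CPM in ev libraries (−1.28 ± 0.08, adjusted P = 1.6e-16). At day 9 it had 9.73, 10.9 and 11.05 CPM in *cco-1* RNAi libraries, against 20.6, 22.5 and 20.6 CPM in ev libraries (−0.95 ± 0.08, adjusted P = 2.0e-12). The gap then narrowed, to −0.44 ± 0.08 at day 11, where the values were 9.66, 11.8 and 12.1 CPM in *cco-1* RNAi libraries, against 15.5, 15.3 and 15.5 CPM in ev libraries. At day 1 the difference was in the other direction (0.20 ± 0.08, adjusted P = 0.048), with libraries that overlapped. In the order of its group means the ev groups of days 5, 7 and 9 stood first, each apart from the next, followed by ev at days 3 and 11, which overlapped each other, and then by all 6 *cco-1* RNAi groups. Last was ev at day 1, whose libraries overlapped those of *cco-1* RNAi at day 9. For *jmjd-1.2*, 4 of 11 neighbouring pairs had no overlap.

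**Figure D3:**
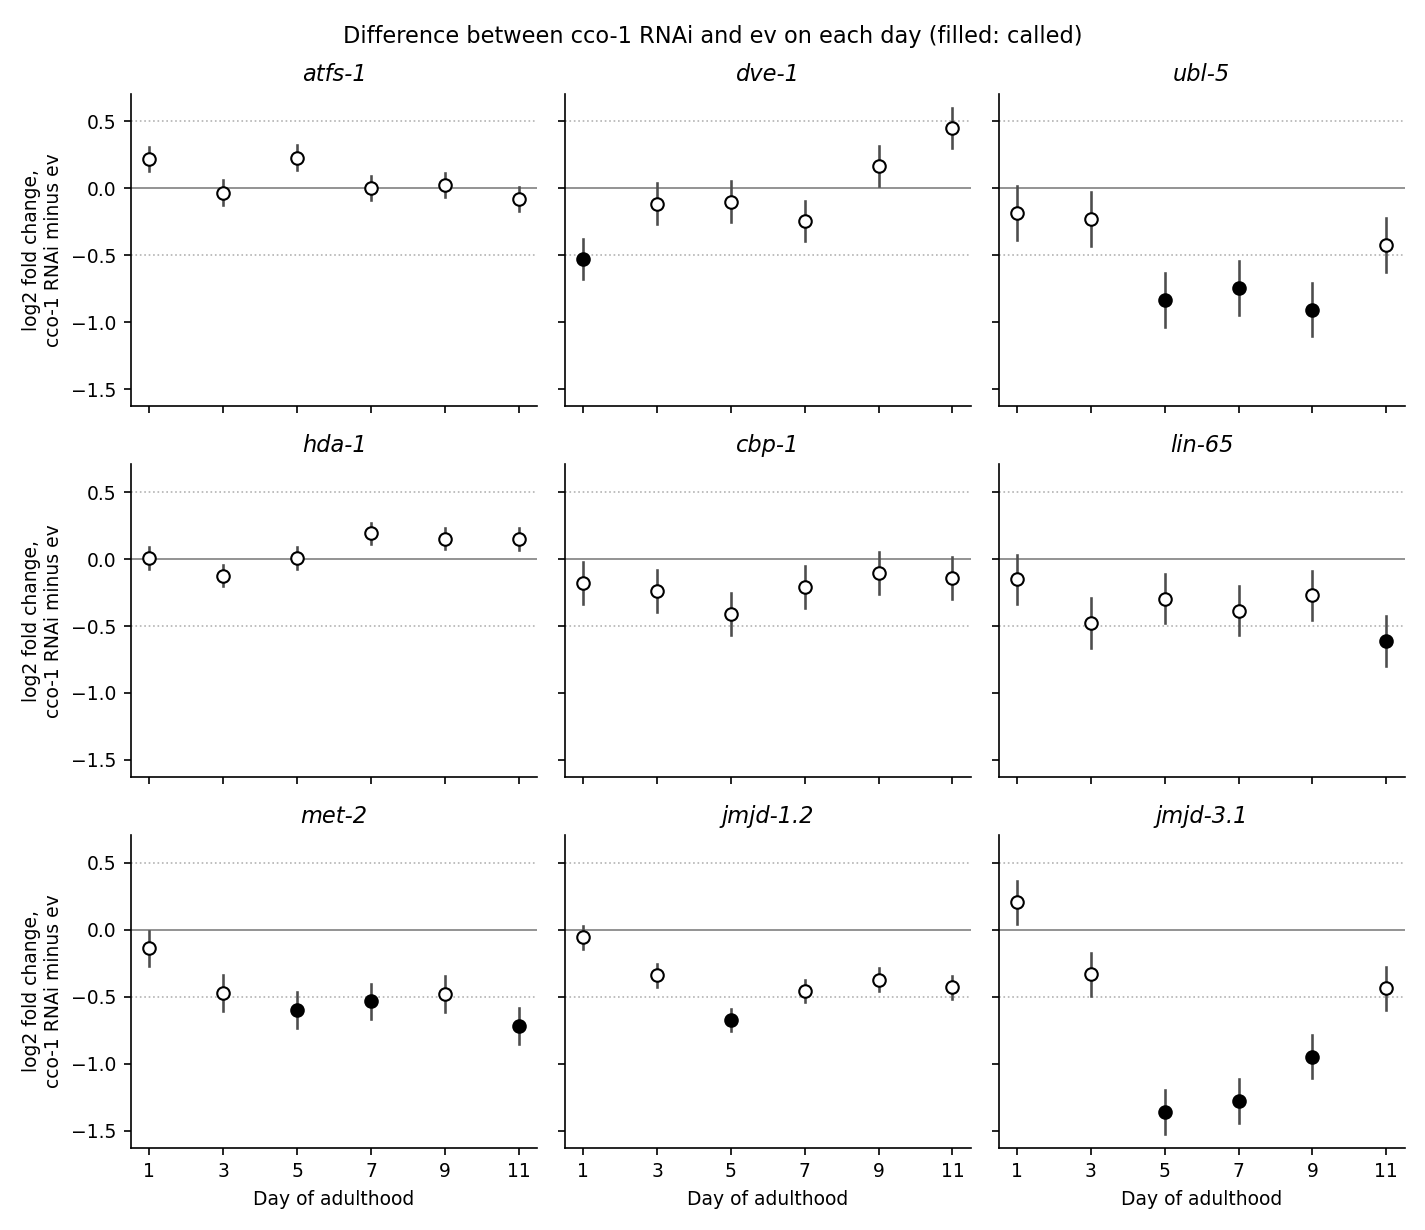
log2 fold change of *cco-1* RNAi over ev on the log2(CPM + 1) scale for each gene at each day, with its 95% interval. Filled points were called, the solid line marks 0 and the dotted lines the fold threshold of 0.5. The filled points, 12 in all, lie below 0, the lowest at −1.36 for *jmjd-3.1* at day 5.

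With age, most of the chromatin genes rose in worms on either diet and *dve-1* fell in ev worms. Between day 1 and day 11, *hda-1*, *cbp-1*, *lin-65*, *met-2*, *jmjd-1.2* and *jmjd-3.1* were called higher in ev worms, 6 of 9 where 41.8% of all genes were, and *dve-1* was called lower, 1 of 9 where 27.4% of all genes were. In *cco-1* RNAi worms *hda-1*, *cbp-1*, *lin-65*, *met-2* and *jmjd-1.2* were called higher, 5 of 9 against 34.1% of all genes, and 0 of 9 lower against 23.7%. At an unadjusted P below 0.05 in limma, 2 of 9 were lower in *cco-1* RNAi worms. The median log2 fold change of all genes tested between these days was 0.18 in *cco-1* RNAi worms and 0.31 in ev worms, and the changes of single genes are to be read against it.

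*lin-65* had the largest rise at day 11 on both diets, 1.22 ± 0.09 in *cco-1* RNAi worms and 1.68 ± 0.09 in ev worms. It had 23.2, 20.9 and 20.8 CPM in *cco-1* RNAi libraries at day 1, against 22.8, 24.5 and 25.03 CPM in ev libraries at that day. In ev worms *lin-65* had changed from day 1 by 0.65 ± 0.09 at day 7 and 1.42 ± 0.09 at day 9. *met-2* changed by 0.62 ± 0.07 in *cco-1* RNAi worms and 1.20 ± 0.07 in ev worms, and *jmjd-1.2* by 0.66 ± 0.04 in *cco-1* RNAi worms and 1.03 ± 0.04 in ev worms. The rises of both were smaller on *cco-1* RNAi. By its group means *hda-1* was highest at day 5 on both diets. Its changes from day 1 in *cco-1* RNAi worms were 0.66 ± 0.04 at day 3, 0.87 at day 5 and 0.76 ± 0.04 at day 11. In ev worms they were 0.79 ± 0.04, 0.87 and 0.61 ± 0.04 at the same days. *cbp-1* changed by 0.59 ± 0.08 in *cco-1* RNAi worms and 0.55 ± 0.08 in ev worms. The muscle markers, low at day 11 as given above, had summed at day 1 to 6428 to 6624 CPM in *cco-1* RNAi libraries and 6599.9 to 6753 CPM in ev libraries, and the part of that fall in these rises was not tested.

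In ev worms *dve-1* was lower than at day 1 from day 3 on. It changed from day 1 by −0.48 ± 0.07, −0.26 ± 0.07, −0.32 ± 0.07, −1.02 ± 0.07 and −1.26 ± 0.07 at days 3, 5, 7, 9 and 11, all past the test, of which days 9 and 11 were called. In *cco-1* RNAi worms, *dve-1* changed by −0.32 ± 0.07 at day 9 and −0.28 ± 0.07 at day 11. The change at day 3 in ev worms was inside the fold threshold and passed it when single libraries were left out, at −0.52 without ev day 1 replicate 2, −0.51 without ev day 1 replicate 3 and −0.53 without ev day 3 replicate 2. At day 1 the intestine markers had summed to 1958 to 2013 CPM in *cco-1* RNAi libraries and 1520 to 1542 CPM in ev libraries. Their sums at day 11, given above, were lower on both diets. In the change by day 11 on *cco-1* RNAi minus that on ev, 6 of 7 were called higher and 1 lower. Of all genes, 17.2% and 18.1% were. The part of these intestine changes in those of *dve-1* was not tested.

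Across the other days, the count of the 9 genes called higher than at day 1 in ev worms was 4, 5, 7 and 7 in order from day 3 to day 9, where 28.7%, 31.6%, 31.3% and 38.6% of all genes were. In *cco-1* RNAi worms it was 2, 1, 2 and 5 at the same days, where 24.6%, 30.1%, 30.8% and 34.9% of all genes were. Called lower in ev worms were 0, 0, 0 and 1 (*dve-1*), against 23.6%, 26.8%, 27% and 27% of all genes, and in *cco-1* RNAi worms 0 at each of these days, against 19.6%, 23.1%, 23.9% and 24.2%. At an unadjusted P below 0.05 in limma, 2, 2 and 1 of 9 were lower in ev worms at days 3, 5 and 7, and 1 of 9 in *cco-1* RNAi worms at each of days 3, 5, 7 and 9. The ev counts exceeded the share of all genes at each day, and the *cco-1* RNAi counts were near or below it until day 9. At day 3 the ev excess rests on the calls of *ubl-5* and *jmjd-3.1*, which were lost with a pseudocount of 5. *ubl-5* was among the genes called higher at days 3, 5, 7 and 9 in ev worms, the largest change being 0.83 ± 0.10 at day 5, and in *cco-1* RNAi worms it was called at day 3 alone (0.59 ± 0.10). With a pseudocount of 5 *ubl-5* lost its calls in ev worms at days 3 (0.50) and 9 (0.44) and in *cco-1* RNAi worms at day 3 (0.45), and *jmjd-3.1* in ev worms at days 3 (0.48) and 11 (0.47). *met-2* at day 5 in ev worms (0.50 ± 0.07) was at the edge of the threshold and was past it without ev day 1 replicate 2 (0.51) or ev day 5 replicate 2 (0.52). *cbp-1* at day 5 in *cco-1* RNAi worms changed by 0.46 ± 0.08, and by 0.60 without *cco-1* RNAi day 5 replicate 2, which took it past the threshold.

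**Figure D4:**
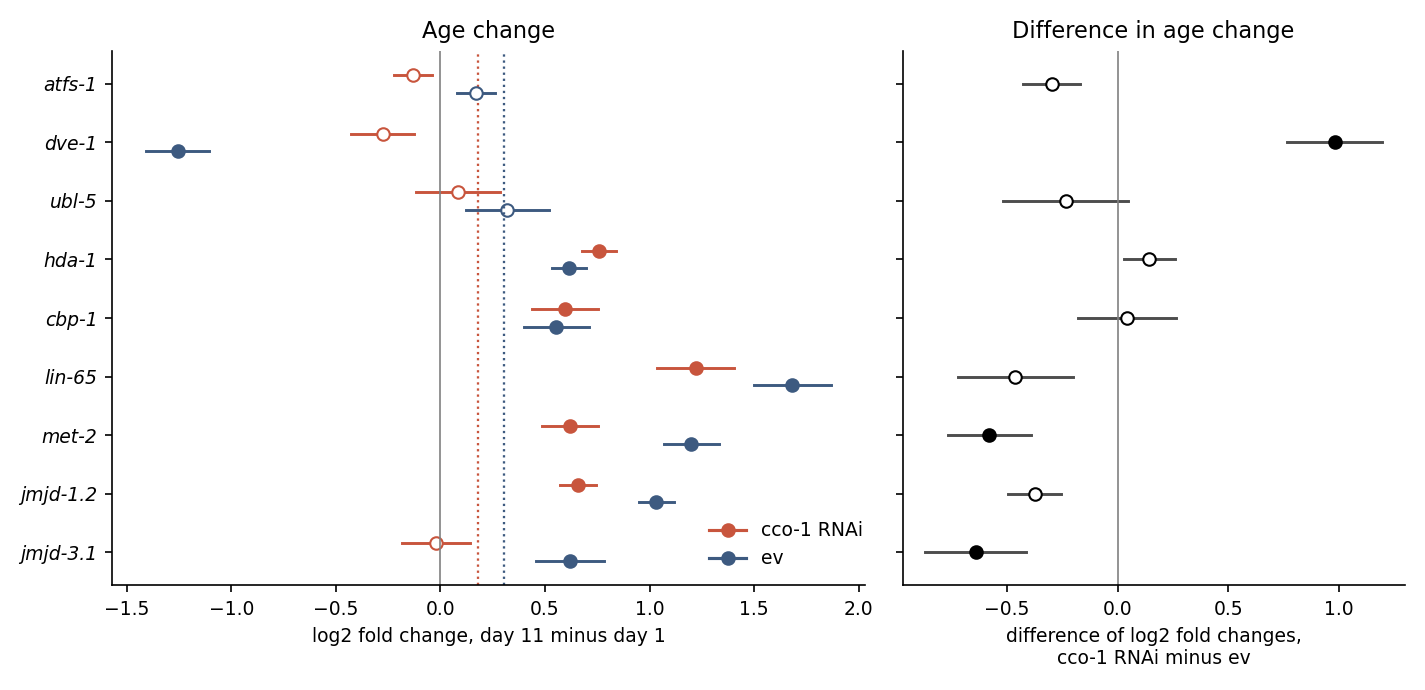
Left, log2 fold change between day 11 and day 1 on the log2(CPM + 1) scale in *cco-1* RNAi (red) and ev (blue) worms with 95% intervals, where dotted lines mark the median of all genes tested (0.18 and 0.31). Right, the difference between the changes, *cco-1* RNAi minus ev, filled where called. *dve-1* lies at 0.98, *met-2* at −0.58 and *jmjd-3.1* at −0.64.

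Whether the change with age differed between the diets was tested directly, by subtracting the age change on ev from that on *cco-1* RNAi. At day 11, *dve-1* was called higher (0.98 ± 0.11, adjusted P = 6.4e-10), 1 of 9 where 17.2% of all genes were, as it fell less in *cco-1* RNAi worms. *met-2* (−0.58 ± 0.09, adjusted P = 2.3e-06) and *jmjd-3.1* (−0.64 ± 0.11, adjusted P = 9.0e-06) were called lower, 2 of 9 where 18.1% of all genes were. These shares are near those of all genes. *lin-65* was at −0.46 ± 0.13 (adjusted P = 0.0027), short of the threshold, and at −0.54 without *cco-1* RNAi day 11 replicate 2. *jmjd-1.2* was at −0.37 ± 0.06, *atfs-1* at −0.30 ± 0.06 and *hda-1* at 0.14 ± 0.06, all past the test and inside the fold threshold, whereas *cbp-1* (0.04 ± 0.11, interval −0.18 to 0.26) and *ubl-5* (−0.24 ± 0.14, interval −0.52 to 0.05) did not pass the test.

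In mid-life *jmjd-3.1* differed most of the 9 genes in its change with age. *jmjd-3.1* rose by 0.27 ± 0.08 between day 1 and day 5 in *cco-1* RNAi worms and by 1.83 ± 0.08 in ev worms, a difference of −1.57 ± 0.11, adjusted P = 2.5e-14. The difference was −1.48 ± 0.11 at day 7 and −1.15 ± 0.11 at day 9. At day 3 it was −0.54 ± 0.11, which lost its call without any one of ev day 1 replicate 2 (−0.47), ev day 3 replicate 2 (−0.50), *cco-1* RNAi day 1 replicate 3 (−0.50) or *cco-1* RNAi day 3 replicate 3 (−0.49). Together with it, *jmjd-1.2* (−0.62 ± 0.06) and *ubl-5* (−0.65 ± 0.14) were called lower at day 5, *ubl-5* at days 7 (−0.56 ± 0.14) and 9 (−0.72 ± 0.14), and *dve-1* higher at day 9 (0.70 ± 0.11). With a pseudocount of 5, the differences of *jmjd-3.1* at days 3 (−0.41) and 11 (−0.49) and of *ubl-5* at day 7 (−0.45) were inside the threshold. *met-2* was at −0.46 ± 0.09 at day 5 and past the threshold, at −0.51, without *cco-1* RNAi day 5 replicate 1.

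The counts called lower were thus 1, 3, 2 and 2 of 9 at days 3, 5, 7 and 9, where 7.69%, 17%, 14.6% and 12.6% of all genes were, and those called higher 0, 0, 0 and 1, where 8.58%, 17.5%, 13.9% and 12.8% were. At an unadjusted P below 0.05 in limma, 1, 1 and 2 of 9 were higher at days 3, 5 and 7. Over these 5 days, 5 of 9 genes were called in either direction on at least 1 day, a share near the 56.4% of all genes tested. A moderated F test over the 5 differences in age change passed for 8 of 9 genes, all but *cbp-1* (adjusted P = 0.13), where 84.2% of all genes tested passed, so that the share of the 9 genes was near that of all genes.

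The pathway around these regulators was looked at through lists of related genes. Of all genes tested, 4.63% were called higher and 4.46% lower in *cco-1* RNAi than in ev worms at day 1. At day 11 the shares were 15.1% and 13.3%, and the counts of every list at day 11 were near or below them. Of 9 mitochondrial chaperone, protease and import genes that are read as targets of the response, 4 were called higher in *cco-1* RNAi than in ev worms at day 1, where 4.63% of all genes were (median log2 fold change 0.50, beside −0.01 for all genes), and 1, 2, 0, 1 and 0 were at days 3, 5, 7, 9 and 11. At an unadjusted P below 0.05 in limma, 3 were higher and 2 lower at day 7, and 3 were higher and 5 lower at day 11. *timm-23*, an inner membrane import channel gene, changed most at day 1 with 192 CPM in *cco-1* RNAi worms and 84.8 CPM in ev worms (1.17 ± 0.10, adjusted P = 1.9e-10). *hsp-6*, the mitochondrial HSP70 gene, was picked after its values were seen and had 575 CPM in *cco-1* RNAi worms and 407 CPM in ev worms at that day, a log2 fold change of 0.495 just inside the threshold.

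Of 17 other genes of mitochondrial stress signalling, 0 were called in either direction at day 1 (4 higher and 5 lower at an unadjusted P below 0.05 in limma), and 3 were called higher and 2 lower at day 11 (median −0.14, beside −0.08 for all genes). *hif-1*, the hypoxia transcription factor, changed most among those of at least 5 CPM, with 120.1 CPM in *cco-1* RNAi worms and 65.3 CPM in ev worms (0.86 ± 0.07, adjusted P = 1.8e-13). Called higher were 2, 1, 1 and 0 of the 17 at days 3, 5, 7 and 9. Of all genes, 9.36%, 16.7%, 11.6% and 9.44% were. Called lower were 0, 4, 4 and 2 of the 17 at these days, where 7.92%, 16.6%, 13% and 8.69% of all genes were. Of 9 heterochromatin genes that act around MET-2, 0 were called at day 1 (0 at an unadjusted P below 0.05 in limma) and 1 was called lower at day 11, *set-25*, a histone H3 methyltransferase gene, with 10.7 CPM in *cco-1* RNAi worms and 21.1 CPM in ev worms (−0.94 ± 0.18, adjusted P = 4.1e-05). The list's median was −0.22 at day 11. At days 3, 5, 7 and 9, 2, 2, 2 and 0 of the 9 were called lower and 0 higher, against the same shares of all genes. The medians at these days were −0.31, −0.31, −0.27 and −0.14, beside −0.01, 0.06, 0.04 and −0.01 for all genes.

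Among 8 other Jumonji demethylase genes, 0 were called at day 1 (6 lower and 0 higher at an unadjusted P below 0.05 in limma) and 1 was called lower at day 11, *jmjd-3.2*, a relative of *jmjd-3.1*, with 3.92 CPM in *cco-1* RNAi worms and 9.94 CPM in ev worms (−1.15 ± 0.09, adjusted P = 4.4e-13). At day 5, 3 of 8 were called lower and 1 higher, where 16.6% and 16.7% of all genes were, with a median of −0.38 beside 0.06 for all genes. Lower were *jmjd-3.2* (10.6 CPM in *cco-1* RNAi and 50.5 CPM in ev worms, −2.15 ± 0.09), *utx-1* (−1.01 ± 0.07) and the low transcript *jmjd-3.3* (−1.29 ± 0.13). *jmjd-1.1*, also low, was higher (0.64 ± 0.10). *jmjd-3.2* was called lower from day 3 to day 11. Its difference in age change at day 5 was −2.11 ± 0.13, so that of *jmjd-3.1* was not particular to it. Of 11 genes of histone deacetylase complexes, 0 were called at day 1 (2 higher and 0 lower at an unadjusted P below 0.05 in limma) and 2 were called lower at day 11, of which *let-418*, a Mi-2 remodelling ATPase gene, had 323 CPM in *cco-1* RNAi worms and 475 CPM in ev worms (−0.56 ± 0.07, adjusted P = 1.9e-07). Between day 1 and day 11, 8 of these 11 rose on *cco-1* RNAi (median 0.65), where 34.1% of all genes did (median 0.18), and 10 of 11 on ev (median 0.89), where 41.8% did (median 0.31). Called higher between these days on *cco-1* RNAi were also 6 of 9 heterochromatin, 6 of 8 Jumonji and 8 of 17 signalling genes. On ev they were 7, 5 and 11. The rise was thus not particular to the 9 genes. Called lower were 0, 0 and 2 on *cco-1* RNAi and 0, 0 and 4 on ev. Of the 9 chaperone, protease and import genes, 0 were called higher and 5 lower on *cco-1* RNAi, and 2 and 2 on ev. Of all genes, 23.7% and 27.4% were called lower.

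Of 9 acetyltransferase and bromodomain genes, 1 was called higher at day 1, *cbp-3*, with 54.7 CPM in *cco-1* RNAi worms and 24.3 CPM in ev worms (1.14 ± 0.08, adjusted P = 3.3e-15), and 1 at day 11, *cbp-2*, with 13.6 CPM in *cco-1* RNAi worms and 7.09 CPM in ev worms (0.85 ± 0.09, adjusted P = 3.8e-10). Both are close relatives of *cbp-1*, so that reads may be split among the 3 genes and their values are uncertain. *cbp-2* and *cbp-3* also share 173 exon bases on the same strand, where reads cannot be assigned to one gene. A pseudogene on the other strand shares 364 exon bases with *cbp-3*, and reads were counted without regard to strand. *cbp-1* itself was at −0.18 ± 0.08 at day 1 and −0.14 ± 0.08 at day 11.

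The genes most like each of the 9 in pattern were looked up among 8082 genes of sufficient level, by Pearson's r over the 12 group means of log2(CPM + 1), which share libraries, diets and ages and so are a description without a test. *met-2* and *jmjd-1.2* were among each other's closest 3 (r = 0.987), next to *mat-2* and *sacy-1* for *met-2* and to *pfs-2* and *npp-10* for *jmjd-1.2*. *lin-65* was closest to *H20J04.4* (r = 0.993), *F56G4.6* and *pole-1*, and correlated with *met-2* at 0.94. *jmjd-3.1* was closest to *W03G11.4* (r = 0.987), *let-4* and *chd-3*, a gene of the deacetylase complex list, and to *ubl-5* among the 9 at 0.82. *cbp-1* was closest to *sdc-3* (r = 0.990), *atf-6* and *lsy-12*, and *hda-1* to *F11E6.7* (r = 0.986), *C32D5.3* and *W04A8.6*. *dve-1* was closest to *sma-6* (r = 0.967), *tag-147* and *ttr-44*, and ran against *lin-65* at −0.82. *ubl-5* was closest to *ZK1127.6* (r = 0.955), *seu-1* and *hinf-1*. *atfs-1*, whose level varied least, was closest to *fem-1* (r = 0.917), *spch-2* and *C34D4.2*.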

How the data were processed

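RNA was extracted from whole worms, enriched for polyA and sequenced on a BGISEQ-500. The authors mapped reads to WBcel235 with STAR (2.73a in the submitters' notes, with edgeR 3.24.3) and counted them per gene without regard to strand, and they state limma-voom for their tests. The deposited values are CPM, linear and without a value of 0, which the authors scaled to library size. The tenth highest value (3019 CPM) and the hundredth highest (962 CPM) were equal in all 36 libraries, and library sums ran from 916765 to 953972 CPM, as after a quantile normalization, a step not given in the sources used here, so the depth of a library is unknown. The stage in the labels is the same for all samples, and days were taken from the sample titles.

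The 15713 of 18949 genes that reached 1 CPM in 3 or more libraries were tested with limma 3.58.1 (R 4.3.3, statmod 1.5.0) on log2(CPM + 1), with 12 group means, trended and robust empirical Bayes, 24 residual degrees of freedom and two-sided tests adjusted by Benjamini and Hochberg over all genes tested. Whole counts were not used here, so voom was not run. Calls needed a log2 fold change beyond 0.5 and an adjusted P below 0.05. The fit was tested on simulated data. Alternatives were pseudocounts of 0.1 and 5, filters of none and 5 CPM, median centring, only the groups compared, the replicate number as a block, group weights, each replicate left out, and fold thresholds of none and 1. The 9 genes, the pathway and tissue lists and the tests were chosen with earlier results of these data known. Named list genes were those called in the same direction at days 1 and 11, and per list the largest called change at day 1 and at day 11 whose higher group averaged 5 CPM or more. The Jumonji genes named at day 5 were all those called on that day. Likeness was looked up among genes of 10 CPM or more. Positions came from Ensembl's WBcel235 annotation.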

Additional observations from a re-analysis of the deposited data

Results flagged for a closer look

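The change with age differed between *cco-1* RNAi and ev worms, by the direct test of that difference and past the fold threshold, for 5 of the 9 genes on at least 1 day, where 56.4% of all genes tested were called in either direction on at least 1 of the 5 days. For *jmjd-3.1* the difference in log2 fold change from day 1, *cco-1* RNAi minus ev, was −0.54, −1.57, −1.48, −1.15 and −0.64 in order from day 3 to day 11, of which the day 3 value lost its call without any one of 4 libraries (−0.50 to −0.47) and with a pseudocount of 5 (−0.41), and the day 11 value with that pseudocount (−0.49). For *ubl-5* the values of days 5, 7 and 9 were −0.65, −0.56 and −0.72, and that of day 7 was no longer past the threshold with a pseudocount of 5 (−0.45). For *met-2* it was −0.58 at day 11, and for *jmjd-1.2* −0.62 at day 5. *dve-1* went the other way, at 0.70 at day 9 and 0.98 at day 11. All comparisons with day 1 within a diet share the 3 day 1 libraries, so that the values at different days are not independent. With 3 libraries in a group, a single outlying library could not be told from the spread, though each library was left out in turn.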

How the results depend on the processing

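The fold threshold of 0.5 decided most counts. Shares of all genes at other fold thresholds are not given here, so the counts at those thresholds cannot be set against them. With no fold threshold, the number of the 9 genes higher in *cco-1* RNAi than in ev worms was 2, 1, 1, 1 and 2 at days 1, 5, 7, 9 and 11 in place of 0, and the number lower was 7, 6, 7, 5 and 5 at days 3, 5, 7, 9 and 11 in place of 0, 4, 3, 2 and 2. For the change between day 1 and day 11, 2 genes were then lower in *cco-1* RNAi worms in place of 0, and for the difference in age change at day 11, 2 were higher in place of 1 and 5 lower in place of 2. With a threshold of 1, the number lower in *cco-1* RNAi than in ev worms was 0, 1, 1, 0 and 0 at days 1, 5, 7, 9 and 11, the number higher at day 11 than at day 1 was 1 in *cco-1* RNAi and 3 in ev worms, and the difference in age change at day 11 was called higher for 0 and lower for 0, while *jmjd-3.1* was still lower in it at days 5, 7 and 9. With a pseudocount of 5 the number lower at day 1 was 0 (*dve-1* at −0.45), and that lower in the difference in age change at day 11 was 1, since *jmjd-3.1* was at −0.49. In all 9 calls of single genes were lost at that pseudocount, the others being *ubl-5* (days 3 and 9 in ev and day 3 in *cco-1* RNAi worms, against day 1, and day 7 in the difference in age change, at −0.45) and *jmjd-3.1* (days 3 and 11 against day 1 in ev worms, and day 3 in the difference in age change, at −0.41). Leaving out one replicate in turn gave 0 to 1 genes lower at day 1 and 0 to 2 at day 3. It also added *met-2* (−0.59) at day 9 and *ubl-5* (−0.52) at day 11 to those lower, each without *cco-1* RNAi replicate 2 of that day. Over single genes, leaving out replicates lost 5 calls, gained 14 and left 1385 values on their side of the threshold.

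The filters, median centring, group weights, fitting only the groups compared and a replicate block changed no call of the 9 genes in any of the 21 contrasts, and no called value turned round under any alternative. Apart from median centring, these settings leave each log2 fold change as it was in this balanced design, so they could alter a call only through its P. Median centring could move little, because the libraries already had nearly the same distribution. Replicate numbers showed no clear pairing of the samples. Of 18 same-numbered pairs, 2 correlated above 0.1 (range −0.14 to 0.21), replicates 2 and 3 at day 5, and 6 of 18 correlated best with their own number. With 3 libraries in a group this check is weak and cannot exclude pairing. With the replicate block 1431 genes in place of 1429 were called at day 1, and *dve-1* stayed at −0.53, which the block cannot alter. A sign changed in 27 of 3294 values, all of genes called under neither setting. Without depth, no counting error can be given for the low transcripts *dve-1*, *ubl-5* and *jmjd-3.1*, and their fold changes on the log2(CPM + 1) scale understate the ratio of CPM means.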
